A study of Mus musculus with 2 samples.

Results

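The genes that encode collagen chains, laminin chains and nidogens were followed across the cell types of the adult mouse pituitary. They were chosen by symbol alone: every gene of the deposited table named as a collagen chain (44 genes), a laminin alpha, beta or gamma chain (11 genes) or nidogen 1 or 2 (2 genes). This gave 57 of the 28693 genes in the table. The samples were pituitaries of male C57BL/6 mice aged 7 weeks, dispersed to single cells and profiled with droplet-based 3′ RNA sequencing. Each of the 2 libraries came from a pool of 3 glands; there was no second genotype, treatment or age, so all comparisons are between cell types within the same pools. The p-values below rest on how much the differences between classes varied from 1 pool to the other. This spread was estimated over all classes together, after the shift between the pools was taken out. A unique molecular identifier (UMI) marks an original RNA molecule, and levels are UMIs per 1000000 UMIs of a class and library (CPM), scaled with trimmed means (TMM) so that the large hormone transcripts do not depress the rest. Since only the 3′ end of each molecule is counted, CPM does not depend on transcript length, although capture may differ between genes.

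Collagens are built from 3 chains wound into a triple helix. Types I, III and V form the fibrils of connective tissue, type VI forms beaded filaments, and type IV forms the sheet-like network of basement membranes. Laminins are trimers of an alpha, a beta and a gamma chain and form the other basement membrane network, which nidogens bridge to collagen IV. In the anterior pituitary, endocrine cells lie in cords that a basement membrane separates from the capillaries, while fibroblasts and pericytes are the usual makers of fibrillar collagen.

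The 2 libraries held 6546 and 7117 cell barcodes with median depths of 10128 and 10636 UMIs, and 54 barcode sequences occurred in both. After removal of presumed doublets 12534 cells were used. Clusters were made from marker genes that include no collagen, laminin or nidogen, so the levels of these genes played no part in clustering or naming. They were not barred from the variable genes used to score doublets. Cells fell into 11 classes named after their markers ("-like"), from 5962 somatotrope-like cells (growth hormone) and 3281 lactotrope-like cells (prolactin) to 549 gonadotrope-like, 585 corticotrope-like and 268 melanotrope-like cells, 361 stem-like, 165 cycling, 324 endothelial-like, 153 fibroblast-like, 136 macrophage-like and 50 pituicyte-like cells. Pituicytes are glia of the neural lobe. In all, 13462 and 17060 UMIs of the 2 libraries belonged to the 57 genes, 0.0190% and 0.0216% of each library. Marker genes were highest in their own class for 10 of 10 fibroblast, 10 of 10 macrophage, 9 of 9 endothelial, 8 of 8 pituicyte, 8 of 8 cycling and 7 of 7 gonadotrope markers. For the other classes it was 8 of 9 stem, 7 of 8 corticotrope, 6 of 7 lactotrope, 6 of 7 melanotrope and 4 of 6 somatotrope markers. The same markers made and named the clusters, so these counts describe the classes and are no independent check of them. A further 21 cells inside the endothelial-like cluster carried pericyte markers; with 10 and 11 cells in the libraries they were too few for a test and are described only.

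The promoter windows of 4 genes are shown because the results below turn on these genes: Col4a1 and Col4a2, which are transcribed away from each other and share a start region, and Col1a2 and Col27a1, the leading collagen genes of the growth hormone and prolactin cells. In the GENCODE M21 annotation of GRCm38 (mm10), Col4a1 lies at chr8:11198423-11312826 on the minus strand and Col4a2 at chr8:11312805-11449287 on the plus strand, so the genes overlap by 22 bp at their 5′ ends. Col1a2 lies at chr6:4504814-4541544 and Col27a1 at chr4:63214004-63334991, both on the plus strand. The windows run from 250 bases before to 50 bases after the RefSeq start (GRCm38.p6), at chr8:11312777-11313076 (minus), chr8:11312555-11312854 (plus), chr6:4505368-4505667 (plus) and chr4:63215162-63215461 (plus). Capitals mark matches on either strand to a GC box, searched as GGGCGG, to the pentamer CCAAT of the CCAAT box, and to TATNCAT, which is the core of a POU1F1 site.
Col4a1: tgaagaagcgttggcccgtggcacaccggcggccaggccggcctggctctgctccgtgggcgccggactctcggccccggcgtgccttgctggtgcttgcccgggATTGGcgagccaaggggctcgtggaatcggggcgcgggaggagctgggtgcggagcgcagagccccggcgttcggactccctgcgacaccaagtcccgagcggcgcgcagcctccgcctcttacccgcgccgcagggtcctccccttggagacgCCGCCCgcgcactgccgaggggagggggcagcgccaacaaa
Col4a2: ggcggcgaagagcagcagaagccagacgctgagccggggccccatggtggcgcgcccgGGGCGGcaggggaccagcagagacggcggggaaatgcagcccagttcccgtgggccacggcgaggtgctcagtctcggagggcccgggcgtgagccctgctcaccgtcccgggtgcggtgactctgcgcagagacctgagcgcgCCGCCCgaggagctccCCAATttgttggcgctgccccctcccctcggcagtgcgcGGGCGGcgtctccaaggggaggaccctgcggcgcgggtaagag
Col1a2: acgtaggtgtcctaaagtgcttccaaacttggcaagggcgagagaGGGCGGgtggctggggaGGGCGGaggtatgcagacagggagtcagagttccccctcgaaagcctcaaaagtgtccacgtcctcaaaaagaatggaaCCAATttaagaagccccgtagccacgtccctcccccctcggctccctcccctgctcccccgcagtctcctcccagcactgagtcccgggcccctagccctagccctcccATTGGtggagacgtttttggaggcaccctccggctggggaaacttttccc
Col27a1: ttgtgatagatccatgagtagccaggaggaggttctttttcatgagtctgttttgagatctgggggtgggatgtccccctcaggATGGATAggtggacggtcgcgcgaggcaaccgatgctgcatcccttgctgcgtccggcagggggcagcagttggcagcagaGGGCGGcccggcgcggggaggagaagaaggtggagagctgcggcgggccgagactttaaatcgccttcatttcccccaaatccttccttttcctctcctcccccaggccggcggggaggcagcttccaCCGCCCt

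The Col4a1 and Col4a2 windows share 78 bases. A TATAAA motif was searched as well and is in none of these 4 windows. Among 32544 distinct promoter windows of the same length, 35.9% hold a GC box, 37.4% a CCAAT box, 13.6% TATAAA and 8.74% TATNCAT. Of the 57 genes, 41 are in the promoter table.

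Most of the matrix transcript pool lay outside the endocrine cells. On a scale that leaves the hormone transcripts out of the total and applies no TMM factor (hormone-free CPM), the 57 genes together made up 8058 and 8969 in fibroblast-like cells of libraries 1 and 2, and 3528 and 3456 in pituicyte-like cells. Endothelial-like cells held 2598 and 3089. The stem-like class was lower with 706 and 690.5, and the 5 hormone classes held between 110 and 229. Of the 57 genes, 27 reached 50 CPM in some class: 17 were highest in fibroblast-like, 5 in pituicyte-like and 4 in endothelial-like cells. No hormone class was the highest for any of these 27.

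**Figure D1:**
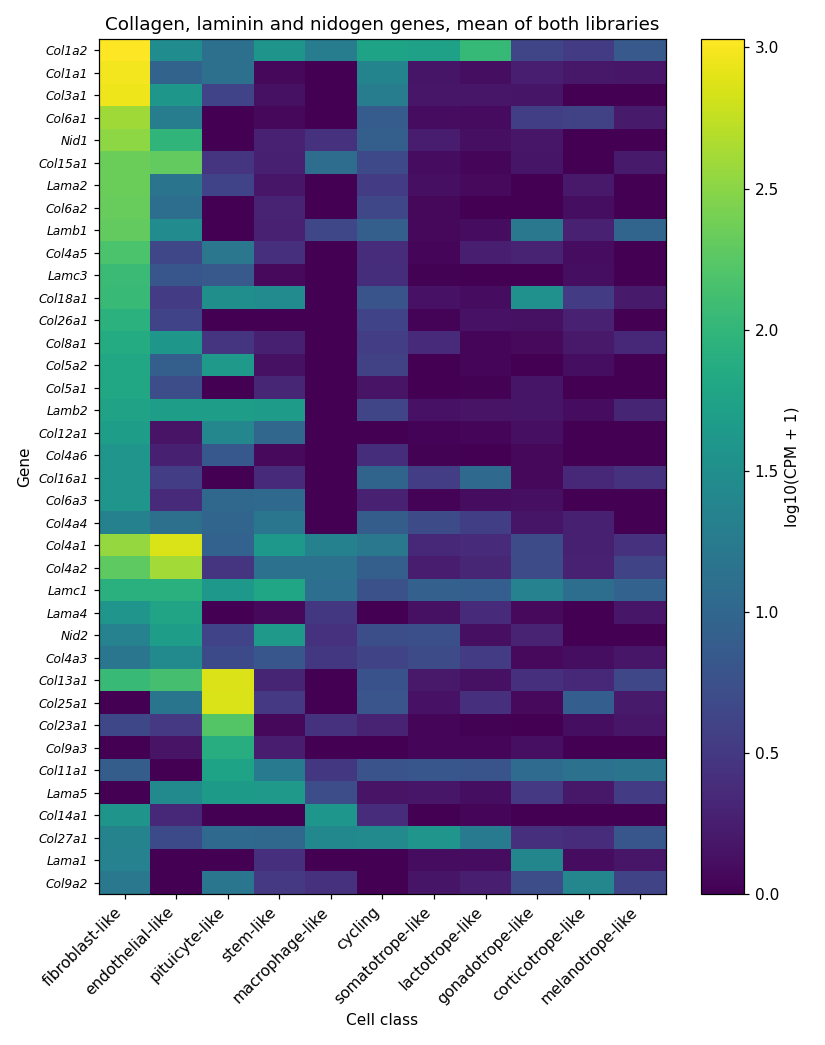
Heat map of 38 genes that reached 20 CPM in some class, with genes as rows, the 11 cell classes as columns and colour for log10(CPM + 1), mean of 2 libraries. Separate blocks stand out for fibroblast-like, endothelial-like and pituicyte-like cells, while Col1a2, Col27a1, Col18a1, Lama1 and Col9a2 also reach into hormone classes.

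Fibroblast-like cells had the widest set. Col1a2, the alpha2 chain of type I collagen, stood at 1061 and 1083 CPM in libraries 1 and 2, and Col1a1, the alpha1 chain, at 878 and 994 CPM. Col3a1, the single chain of type III collagen, stood at 808 and 983 CPM. These genes lay far above the next class in both libraries: Col1a1 was 42.1 times and Col3a1 22.8 times the level of the class with the second highest mean. Type VI chains followed with Col6a1 at 312 and 469 CPM and Col6a2 at 195 and 225 CPM, whereas Col6a3 reached 37.4 and 36.1 CPM. The minor fibrillar chains Col5a1 and Col5a2 were at 62.7 ± 7.48 and 63.5 ± 33.4 CPM (mean ± SD, n = 2 libraries), and Col5a2 did not separate from pituicyte-like cells (41.8 ± 10.1 CPM).

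Basement membrane genes were also high in the fibroblast-like class, with their own choice of chains. Lama2 stood at 199.6 and 242 CPM, Lamb1 at 212 and 187 CPM, and Lamc3, a gamma chain of restricted distribution, at 117 and 115 CPM. Nid1 reached 287 and 363 CPM against 27.4 and 14.9 CPM for Nid2. Col4a5, a type IV chain encoded on the X chromosome, stood at 130 and 166 CPM, and its neighbour Col4a6 at 37.1 ± 7.47 CPM. Col15a1 and Col18a1, the multiplexins of basement membrane zones, were at 226 ± 29.5 and 112 ± 3.47 CPM. Col26a1 (86.3 ± 16.2 CPM), Col8a1 (71.3 ± 37.3 CPM), a short-chain network collagen, and Lamb2 (54.5 ± 10.0 CPM) completed the group. Col8a1 overlapped the endothelial-like libraries and Lamb2 the pituicyte-like ones.

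The differences were tested with edgeR's quasi-likelihood test on class and library sums, with Benjamini-Hochberg adjustment over 12447 genes and a threshold of 0.05. Of the 57 genes, 42 passed the filter on low counts; a gene confined to few classes passes only through them, so the counts below describe these genes and are not evidence on their own. Against the mean of the other classes, 34 of 42 were higher in fibroblast-like cells and 0 were lower, where 16% of all genes tested were higher and 6.89% lower. Log2 differences included 10.65 ± 0.18 (SE) for Col3a1 (adjusted p = 1.4e-42, edgeR) and 9.19 ± 0.33 for Lama2 (adjusted p = 3.1e-42, edgeR). For Nid1 the log2 difference was 9.11 ± 0.24 (adjusted p = 8.3e-52, edgeR). Since the contrast averages log2 levels and many other classes are near 0, these values depend on the small count added to each level and are best read beside the CPM.

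Among the classes, endothelial-like cells, with the pericyte-like cells counted in, had the highest levels of the common type IV collagen chains. Col4a1 stood at 628 and 806 CPM and Col4a2 at 388 and 428 CPM, against 334 and 378 CPM and 175 and 202 CPM in fibroblast-like cells. Lama4, the laminin alpha chain typical of vessels, stood at 53.8 and 61.0 CPM, and Lamc1 at 74.8 and 93.0 CPM. Lamc1, the gamma chain shared by most laminins, did not differ beyond the library spread from fibroblast-like cells (79.8 and 87.1 CPM). Col15a1 was at 201 ± 16.8 CPM and overlapped the fibroblast-like libraries. Col13a1, a collagen anchored in the cell membrane, reached 144 and 127 CPM. It did not pass the test between fibroblast-like and endothelial-like cells (log2 difference -0.26, adjusted p = 0.43, edgeR). Nid1 and Nid2 were at 96.0 ± 14.5 and 48.5 ± 6.62 CPM.

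In the direct comparison of fibroblast-like with endothelial-like cells, 24 of 42 genes were higher in fibroblast-like and 5 in endothelial-like cells, where 13.3% and 12.7% of all genes tested were called in those directions. The 5 were Col4a1, Col4a2, Nid2, Lama5 and Col25a1. Lama5, a broadly used epithelial and endothelial alpha chain, had no UMI in fibroblast-like cells and 29.2 and 24.2 CPM in endothelial-like cells; 3 UMIs would be 7.49 and 6.37 CPM in the fibroblast-like libraries. The log2 difference was -1.01 for Col4a1 and -1.11 for Col4a2. Col4a1 kept nearly the same share of the Col4a1 and Col4a2 UMIs in both classes: 63.8% (95% exact binomial interval 62.0 to 65.7, 1720 and 974 UMIs) in endothelial-like and 65.4% (60.9 to 69.7, 312 and 165 UMIs) in fibroblast-like cells. In stem-like cells it was higher, 76.3% (71.0 to 81.0, 225 and 70 UMIs). Such intervals cover counting error only.

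Against the mean of the other classes, 24 of 42 genes were higher and 2 lower (Col11a1 and Col27a1) in endothelial-like cells, at a background of 27.1% and 17.5%. For 10 of the 24, the mean CPM of the other classes was the larger of the pair, since the test averages log2 levels and a mean CPM is set by the class with the highest level. Col1a1, for example, had a log2 difference of 2.55 at 8.34 CPM against a mean of 97.3 CPM elsewhere. Part of this low signal lay in the 21 pericyte-like cells. They make up 6.48% of the cells and 6.17% of the UMIs of the endothelial-like class, but 79.5% of its Col6a1 UMIs (35 of 44; exact interval 64.7 to 90.2%), 63.2% of its Col3a1 UMIs (60 of 95) and 59.4% of its Lama2 UMIs (19 of 32). They held 9.77% of Col4a1 and 2.81% of Col13a1 UMIs. Without these cells Col1a1, Col26a1 and Lamc3 no longer passed the test in the endothelial-like class, and Col1a2 was lower than elsewhere (log2 difference -0.76, adjusted p = 0.041, edgeR).

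**Figure D2:**
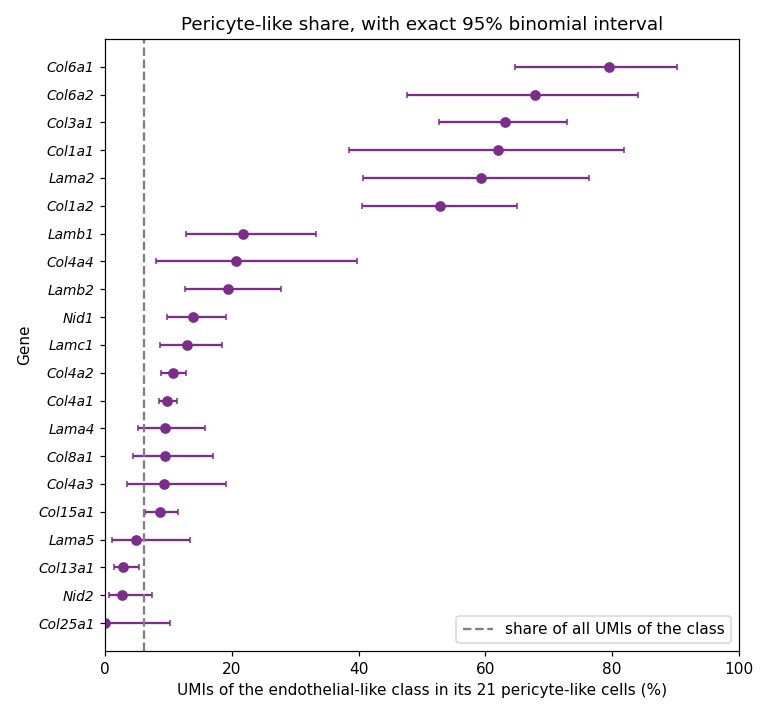
Share of each gene's UMIs in the endothelial-like class that came from its 21 pericyte-like cells, for the 21 genes with at least 20 UMIs in the class. Points are percentages with exact 95% binomial intervals, and the dashed line is the 6.17% of all UMIs in those cells; Col6a1, Col6a2, Col3a1, Col1a1, Lama2 and Col1a2 lie above 50%.

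Markers of other cells were present in both groups. Pericyte-like cells held Dcn, a fibroblast marker, at 972 hormone-free CPM against 38.3 in the remaining endothelial-like cells, and the endothelial marker Plvap at 2495 against 6495; their part in the values below was not tested. Within the pericyte-like cells, Col3a1 stood at 542 and 503 hormone-free CPM and was found in 81.0% of cells, against 16.9 and 25.2 hormone-free CPM and 3.30% of the remaining endothelial-like cells. Col4a1 was found in 95.2% and 90.8% of the cells of the 2 groups. Its level was 800 and 1768 hormone-free CPM in the pericyte-like cells and 854 and 1023 in the rest, higher in library 2 only. Col4a2 was higher in the pericyte-like cells in both libraries, at 800 and 942 against 513 and 544 hormone-free CPM. Nid1 stood at 284 and 271 hormone-free CPM in the pericyte-like cells and at 108 and 132 in the rest. The nidogens differed in their place: Nid2 had 3 UMIs in the pericyte-like cells and 113 in the rest, while Nid1 had 32 and 198. All of these are descriptions, with 10 and 11 cells per library.

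Pituicyte-like cells were led by membrane-spanning collagens. Col13a1 stood at 703 and 761 CPM and Col25a1, also a transmembrane collagen, at 746 and 711 CPM. Col23a1, another of this kind, stood at 128 and 200 CPM. Col25a1 was 52.0 times and Col23a1 46.1 times the level of the next class, and both libraries lay above every other class. Col13a1 was less particular to these cells, at 5.41 times the level of the next class, the endothelial-like one. Cartilage-type chains were present as well: Col9a3 stood at 67.3 and 84.5 CPM and had a mean below 1 CPM in every other class, and Col11a1 stood at 36.7 and 76.9 CPM. After thinning every cell to 1000 UMIs, 68.3 ± 2.36% of pituicyte-like cells held a Col13a1 UMI and 65.0 ± 7.07% a Col25a1 UMI, against 0.27 ± 0.38% and 0% of stem-like cells. In the thinned counts 0 of 361 stem-like cells allows up to 0.831%; without thinning 10 of the 361 had a Col25a1 UMI (2.80%). Fibrillar Col1a1 gave 4 UMIs in library 1 and 0 in library 2, where the 10 fibroblast markers summed to 324 and 30.7 CPM; their part in this was not tested.

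Against the other classes, 16 of 42 genes were higher and 0 lower in pituicyte-like cells, where 9.13% and 7.42% of all genes were. The log2 difference was 9.85 ± 0.25 for Col25a1 (adjusted p = 1.8e-37, edgeR) and 8.33 ± 0.22 for Col13a1 (adjusted p = 2.3e-35, edgeR). For Col23a1 it was 8.63 ± 0.46 (adjusted p = 5.4e-30, edgeR). With 20 and 30 cells, 1 UMI is worth 6.12 and 3.84 CPM, so genes near 10 CPM rest on a few molecules. The whole class is missing under coarser clustering and when presumed doublets are kept.

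Stem-like cells had about as much laminin as collagen RNA. Laminin chains made up 344 and 303 hormone-free CPM in the 2 libraries, beside 300.2 and 325 for the collagens, whereas in fibroblast-like cells collagens exceeded laminins by far (6665 and 7449 against 959.5 and 1021). Among chains known from epithelia, Lamb3 stood at 11.3 and 8.78 CPM and Lama3 at 5.86 ± 3.99 CPM, with Lama3 below the filter. Lama5 stood at 47.9 and 36.5 CPM, Lamb2 at 53.9 and 39.8 CPM and Lamc1 at 59.6 and 62.8 CPM. Lamb2 had its highest mean in fibroblast-like cells (54.5 ± 10.0 CPM). Its stem-like level did not separate from that class, the endothelial-like class (47.4 and 48.4 CPM) or the pituicyte-like class. Nor did Lama5 separate from the pituicyte-like class.

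The balance of the nidogens was reversed here: Nid2 stood at 41.1 and 41.2 CPM, while Nid1 had 5 UMIs against 231 of Nid2, 2.12% of the pair (exact interval 0.69 to 4.87%). In fibroblast-like cells Nid1 took 94.1% (90.8 to 96.5%) and in endothelial-like cells 66.5% (61.2 to 71.4%). Somatotrope-like cells also had more Nid2, with 28 UMIs of Nid1 against 186 of Nid2, so that Nid1 was 13.1% of the pair (8.87 to 18.4%). Stem-like cells also had Col6a3 with little Col6a1: 56 UMIs of Col6a3 against 1 of Col6a1, where fibroblast-like cells had 32 against 346. Against the mean of the hormone classes, 19 of 42 genes were higher and 0 lower in stem-like cells, at a background of 31.1% and 25.8%. Log2 differences were 7.20 ± 0.31 for Nid2 (adjusted p = 6.7e-37, edgeR), 6.45 ± 0.24 for Lamb2 (adjusted p = 2.3e-41, edgeR) and 5.53 ± 0.23 for Lama5 (adjusted p = 1.3e-38, edgeR). Lamc1 differed by 2.60, Col4a1 by 4.63 and Col18a1 by 4.29. Markers of other cells moved with this class: 38.0% of the stem-like cells held at least 2 fibroblast, endothelial or pericyte markers, against 1.33% of somatotrope-like cells. The most frequent were Mgp (51.8% of stem-like and 3.46% of somatotrope-like cells), Fbln1 (44.0% and 4.18%) and Notch3 (29.9% and 0.15%). No other gene of these marker lists was in more than 9.42% of stem-like cells (Acta2). Plvap was in 5.26% and 5.08%, Dcn in 2.49% and 1.44% and Lum in 0.28% and 0.70% of stem-like and somatotrope-like cells. The part of Mgp, Fbln1 and Notch3 in the 38.0% was not tested. Cells with at least 2 fibroblast, endothelial or pericyte markers held 53.2% of the Col1a2, 64.0% of the Col4a1 and 58.2% of the Lamb2 UMIs of the class. Without them, an alternative added after seeing the data, 17 of 41 genes were higher and 0 lower, and the log2 differences were 7.13 for Nid2, 6.20 for Lamb2, 5.56 for Lama5 and 4.16 for Col4a1. Growth hormone RNA exceeded 30% of the UMIs in 9.42% of stem-like cells; with such cells left out of the classes without a hormone, 21 of 42 genes were higher and 0 lower.

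**Figure D3:**
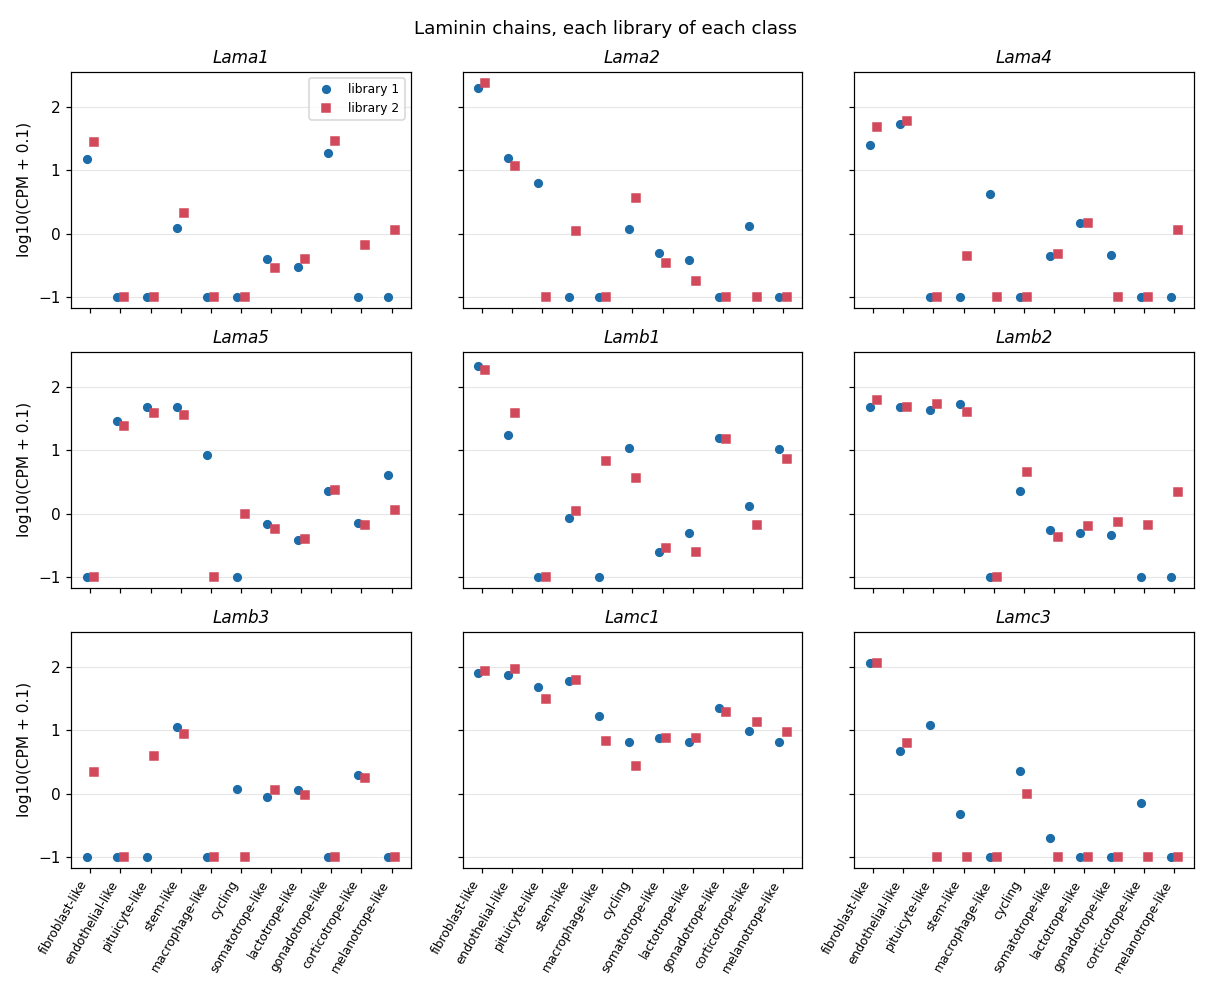
Level of 9 laminin chains in each class, as log10(CPM + 0.1), with 1 circle for library 1 and 1 square for library 2; a value of -1 is 0 CPM. Lama2 and Lamc3 peak in fibroblast-like cells, Lama4 in endothelial-like cells, and Lama1 in gonadotrope-like and fibroblast-like cells.

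Hormone cells expressed single collagen genes, foremost Col1a2 without Col1a1, the chain it is known to assemble with. Col1a2 stood at 100.4 and 109.6 CPM in lactotrope-like and 46.9 and 58.2 CPM in somatotrope-like cells of libraries 1 and 2. In gonadotrope-like cells it was at 2.88 and 3.81 CPM and in corticotrope-like cells at 2.46 and 2.22 CPM. The lactotrope-like libraries both lay above the somatotrope-like ones, and these above all other hormone classes. Against the mean of the other hormone classes the log2 difference was 3.87 ± 0.13 in lactotrope-like cells (adjusted p = 5.9e-26, edgeR) and 2.62 ± 0.15 in somatotrope-like cells (adjusted p = 3.5e-18, edgeR). In gonadotrope-like and corticotrope-like cells it was -2.32 ± 0.39 (adjusted p = 6.2e-06, edgeR) and -2.98 ± 0.46 (adjusted p = 1.5e-06, edgeR).

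Col1a1 was nearly missing from the same cells. Lactotrope-like cells held 2479 UMIs of Col1a2 and 6 of Col1a1, so that Col1a1 made up 0.24% of the pair (exact interval 0.09 to 0.52%). In somatotrope-like cells the counts were 2157 and 19, or 0.87% (0.53 to 1.36%). By library the share was 0.48% and 0.07% in lactotrope-like and 1.36% and 0.49% in somatotrope-like cells. Fibroblast-like cells held 935 and 820, or 46.7% (44.4 to 49.1%). Col3a1, which fibroblast-like cells co-express at 787 UMIs, gave 12 UMIs in lactotrope-like and 21 in somatotrope-like cells. At the level of cells, 1475 lactotrope-like cells had Col1a2 without Col1a1 and 3 had both, whereas 143 of 153 fibroblast-like cells had both. Stem-like cells were alike in this respect, with 203 UMIs of Col1a2 and 1 of Col1a1. Their Col1a2 level of 40.0 and 32.8 CPM is close to the mean of the hormone classes (33.9 CPM), although the log2 contrast is 1.56 ± 0.19 (adjusted p = 5.5e-09, edgeR) because that mean is carried by 2 of the 5 classes.

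The Col1a2 signal was spread over the hormone cells. The 5 cells richest in Col1a2 held 1.45% of its UMIs in lactotrope-like and 1.58% in somatotrope-like cells, and 2.94% and 2.04% of the UMIs lay in cells with at least 2 fibroblast, endothelial or pericyte markers. Without such cells the log2 differences were 3.86 and 2.61. Col1a2 was present in each of the 8 lactotrope-like clusters (123 to 155 hormone-free CPM) and the 9 somatotrope-like clusters (61.5 to 90.2). After thinning to 1000 UMIs per cell, 8.07 ± 1.36% of lactotrope-like and 2.45 ± 0.31% of somatotrope-like cells held a UMI, against 0.18 ± 0.25% of gonadotrope-like cells and 0% of corticotrope-like and macrophage-like cells. For these thinned shares 0 of 585 and 0 of 136 cells allow up to 0.513% and 2.21%. Thinning to 1000 UMIs outside the hormone transcripts gave 12.5% of lactotrope-like and 6.23% of somatotrope-like cells. The unthinned shares were 44.8% of lactotrope-like and 25.4% of somatotrope-like cells, at median depths of 8382 and 13025 UMIs, with 3.08% of gonadotrope-like, 1.19% of corticotrope-like (7 of 585) and 3.97% of macrophage-like cells (6 of 136). The transcript annotated within Col1a2 on the same strand, Gm43921 (chr6:4506087-4507878, awaiting experimental support), is not among the genes of the table.

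**Figure D4:**
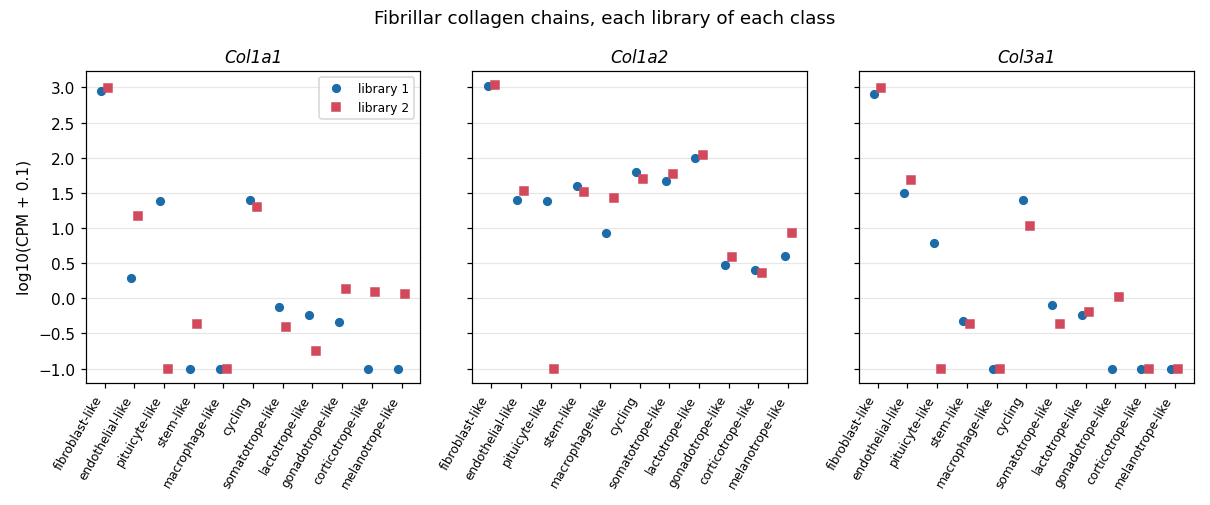
Level of Col1a1, Col1a2 and Col3a1 in each class, as log10(CPM + 0.1), circles for library 1 and squares for library 2; a value of -1 is 0 CPM. All 3 chains are near 1000 CPM in fibroblast-like cells, while Col1a2 alone stays near 100 CPM in lactotrope-like and 50 CPM in somatotrope-like cells.

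Further single collagens were found in somatotrope-like and lactotrope-like cells. Col27a1, a fibrillar chain that forms trimers by itself, stood at 36.9 and 38.1 CPM in somatotrope-like cells and 16.2 and 18.2 CPM in lactotrope-like cells, and at or below 7.84 CPM in every library of the other hormone classes. Its log2 difference in somatotrope-like cells was 3.27 ± 0.16 (adjusted p = 5.7e-32, edgeR), and the somatotrope-like class was the highest of all 11. Col16a1, a collagen of the fibril-associated group, stood at 8.80 and 10.8 CPM in lactotrope-like cells, second to fibroblast-like cells (39.9 and 34.0 CPM). Col24a1, a relative of Col27a1, was at 7.93 and 6.90 CPM in somatotrope-like cells and did not pass the filter. Col4a3 and Col4a4, the adjoining and oppositely transcribed genes of a specialised type IV network, gave 168 and 167 UMIs in somatotrope-like cells (4.11 ± 0.33 and 4.09 ± 1.05 CPM). Their levels were higher outside the hormone cells: Col4a3 stood at 28.3 and 26.6 CPM in endothelial-like cells, and Col4a4 at 11.9 and 12.5 CPM there. In fibroblast-like cells the means were 14.4 and 20.2 CPM and in stem-like cells 5.51 and 14.4 CPM. In somatotrope-like cells Col4a3 alone was found in 156 cells, Col4a4 alone in 158 and both in 7.

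In gonadotrope-like cells several basement membrane genes stood above the other hormone classes. Col18a1, the precursor of endostatin, stood at 31.7 and 34.0 CPM and Lama1, an alpha chain best known from embryonic basement membranes, at 18.7 and 28.6 CPM. Lamc1 was at 22.7 and 19.1 CPM and Lamb1 at 15.5 and 14.9 CPM, all as sums over the class, which do not show that single cells held several of them. Stem-like cells were close for Col18a1 (28.7 and 27.4 CPM) and higher for Lamc1 (59.6 and 62.8 CPM). In other hormone classes Col18a1 did not exceed 2.46 CPM and Lama1 did not exceed 1.03 CPM in any library. Log2 differences were 5.65 ± 0.27 for Col18a1 (adjusted p = 1.1e-33, edgeR), 6.09 ± 0.36 for Lama1 (adjusted p = 1.7e-26, edgeR) and 1.31 ± 0.19 for Lamc1 (adjusted p = 1.0e-08, edgeR). The level of Lama1 overlapped that of fibroblast-like cells (15 and 27.6 CPM). Col18a1 overlaps Slc19a1 on the opposite strand.

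Corticotrope-like cells had Col9a2, a chain of cartilage-type collagen IX, at 20.3 and 27.8 CPM, above the fibroblast-like mean of 15.3 ± 6.61 CPM. Its log2 difference against the other hormone classes was 4.02 ± 0.33 (adjusted p = 1.9e-18, edgeR). Its chain partners were low there, Col9a1 at 1.81 ± 1.78 CPM and Col9a3 below 1 CPM. Col25a1 stood at 6.15 and 7.77 CPM. In melanotrope-like cells the highest levels were Col11a1 at 10.5 and 16.5 CPM and Lamb1 at 10.5 and 7.24 CPM, and Lamb1 alone passed the test.

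**Figure D5:**
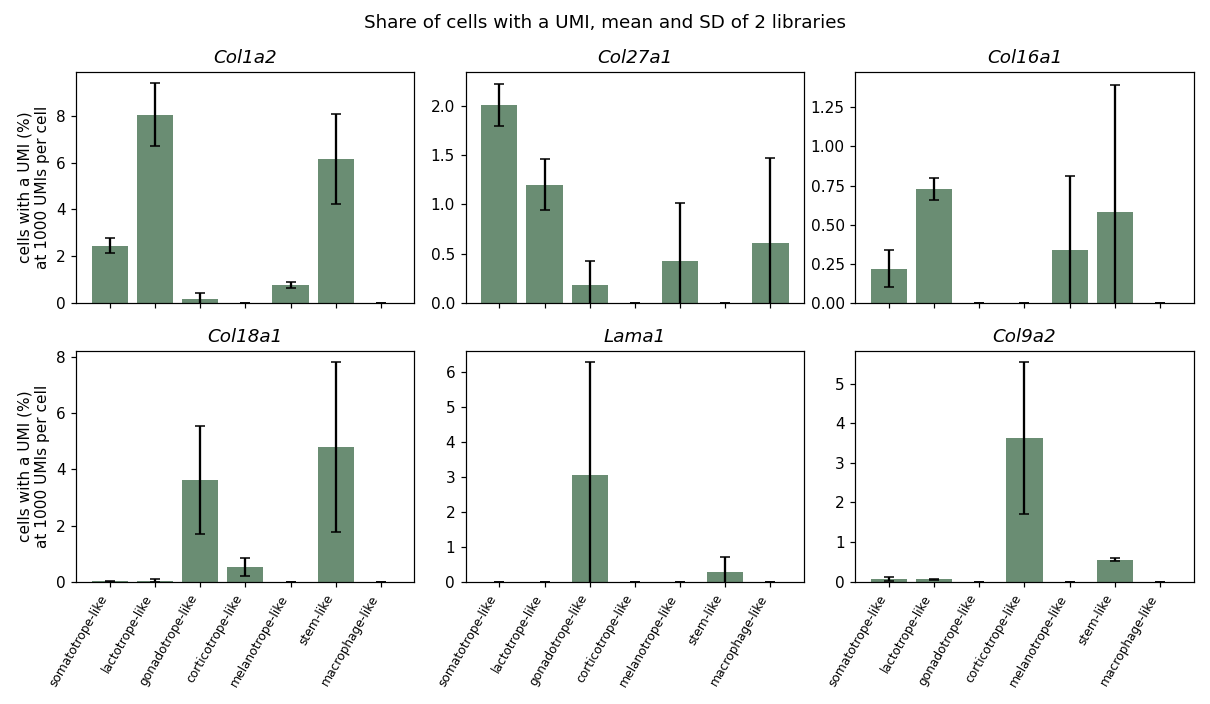
Share of cells with a UMI of 6 genes after thinning each cell to 1000 UMIs, by class; bars are the mean and lines the SD of 2 libraries, and the vertical scale differs between panels. Col1a2 reaches 8.07% of lactotrope-like and 6.15% of stem-like cells, Col27a1 2.01% of somatotrope-like cells, and Col9a2 3.63% of corticotrope-like cells.

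Counted over all 42 genes, the hormone classes did not stand out. Somatotrope-like cells had 7 genes higher and 8 lower than the other hormone classes, where 26.3% and 19.9% of all genes tested were called in those directions (6 higher and 11 lower with DESeq2). Lactotrope-like cells had 6 higher and 9 lower, at a background of 22.7% and 18.7%, and gonadotrope-like cells 8 and 3, at 20.3% and 16.2%. Corticotrope-like cells had 5 higher and 2 lower, at 16.5% and 13.7%. In melanotrope-like cells 1 gene was higher and 0 were lower, at 10.6% and 8.11%. These shares are near or below the background, and the account above is of single genes. Per cell, 40.8% of lactotrope-like cells had no collagen UMI, 42.4% had UMIs of a single collagen gene, and in 71.7% of the latter that gene was Col1a2. In somatotrope-like cells 48.3% had none and 35.2% a single collagen gene, which was Col1a2 in 38.9% of the latter. UMIs of 2 or more collagen genes were in 16.8% of lactotrope-like and 16.5% of somatotrope-like cells. In fibroblast-like cells the median was 10 collagen genes per cell at a lower depth (median 4117 UMIs).

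Macrophage-like cells were poor in these genes apart from Col14a1, a fibril-associated collagen, at 33.1 and 43.9 CPM (21 UMIs), which overlapped fibroblast-like cells (37.4 and 34.0 CPM). Only 3 of 42 genes were higher there (Col14a1, Col15a1 and Col27a1) and 0 lower, at a background of 14.9% and 7.62%. Col27a1 had 14 UMIs in this class, 64.3% of them in 5 cells. Growth hormone RNA exceeded 30% of the UMIs in 7.35% of macrophage-like cells. With such cells left out of the classes without a hormone, an alternative chosen after seeing the data, 2 genes were higher and 1 lower. Col15a1 was called at 11.3 CPM against a mean of 43.4 CPM elsewhere, by the same averaging as in endothelial-like cells. Endothelial markers summed to 541 CPM in library 1 and 13.5 CPM in library 2 of this class, and Col4a1 followed with 10 UMIs and 0; the part of such cells in the result was not tested. In cycling cells Col1a1 had 45 UMIs and Col3a1 35, of which 5 cells held 100% and 97.1%; all of these UMIs lay in cells with at least 2 fibroblast, endothelial or pericyte markers.

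The genes that process and anchor these chains were counted from lists of known partners. Among collagen-processing genes, 14 of 22 were higher in fibroblast-like cells than elsewhere and 2 lower, with the lysyl oxidases Lox (67.9 against 3.11 CPM) and Loxl2 (67.0 against 1.58 CPM) and the procollagen protease Adamts2 (46.7 against 2.51 CPM). In the other fibrillar matrix list 16 of 17 were higher, among them Mfap4 (2126 against 4.03 CPM) and elastin, Eln (133 against 2.60 CPM). The medians of the log2 differences were 2.65 and 5.87, against -0.01 over all genes, at the background of 16% higher and 6.89% lower. Of 13 basement membrane partners, 9 were higher and 0 lower in endothelial-like cells, at 27.1% and 17.5% (median 2.68, against 0.02 over all genes), including the proteoglycan perlecan, Hspg2 (278 against 14.7 CPM), and Tinagl1 (702 against 15.7 CPM).

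Stem-like cells had 11 of 13 matrix protease and inhibitor genes above the hormone classes and 0 below, at a background of 31.1% and 25.8%, among them Timp3 (710 against 11.9 CPM), an inhibitor of metalloproteinases, and Plat (243 against 1.47 CPM), the tissue plasminogen activator. They also had 10 of 15 matrix receptors higher and 2 lower, including the laminin receptors Bcam (155 against 11.8 CPM) and Itga6 (30.6 against 3.91 CPM). Lactotrope-like cells, the class with the most Col1a2 among hormone cells, had 9 of 22 collagen-processing genes higher and 1 lower, at a background of 22.7% and 18.7%. Loxl1 was at 69.4 against 5.69 CPM and Serpinh1, the collagen chaperone, at 303 against 134 CPM. Serpinh1 was also higher in somatotrope-like cells (323 against 128 CPM), which had 9 of 22 higher and 3 lower, at 26.3% and 19.9%. The median log2 differences of the list were 0.19 in lactotrope-like and 0.51 in somatotrope-like cells, against 0.02 and 0.06 over all genes; the comparisons of hormone classes share their reference cells.

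Of the 57 genes, 8 had fewer than 20 UMIs in the 11 classes together, and Col10a1 had none. The 15 genes below the filter were seen at low levels, such as Col17a1 at 3.37 ± 1.08 CPM in melanotrope-like, Col7a1 at 3.79 ± 1.41 CPM in somatotrope-like, Col11a2 at 4.21 ± 1.69 CPM in stem-like and Col2a1 at 3.91 ± 0.59 CPM in gonadotrope-like cells.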

How the data were processed

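Counts of UMIs per gene and cell barcode were deposited by the authors as 1 matrix for both libraries, from Cell Ranger with STAR and the mm10 genome per the submitters' processing notes; no version is stated in the labels. The library of each barcode came from its suffix. Both libraries hold 3 pooled glands. Cells with at least 500 UMIs, 250 genes and at most 20% mitochondrial UMIs were kept, and the 7.6% of each library most like simulated doublets were removed (the rate of the protocol). Leiden clusters (resolution 1, 15 neighbours, 15 components) of 117 marker genes were named by markers. A cluster stayed unnamed with under 3 markers, with more markers of another class than of its own among its leading genes, or with 20 to 90% of cells over 30% Gh. The last rule was set after seeing the data and not applied to the cycling cluster, where 69.7% of cells were over 30% Gh. In all 700 cells had no class name. Members, gene lists and tests were chosen with earlier results of these data known. Genes are named where they reach 50 CPM in a class, or where they passed a hormone-cell comparison or the stem comparison (12 largest) at 20 CPM or more in the same direction in both libraries; partner lists by their 3 largest changes; others named were picked after their values were seen. The values of 1 gene are not reported here.

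UMIs were summed per class and library (22 sums) and fitted with edgeR 4.0.16 (TMM, filterByExpr, robust quasi-likelihood, library as block, 10 residual degrees of freedom, 12556 genes, 109 markers left out of testing). All comparisons share 1 fit. On simulated sums for the comparison of fibroblast-like cells with the rest, 51.1% of 94 genes changed 2-fold and 95.7% of 94 changed 4-fold were called, with 2 false calls among 10733 genes (10921 genes in the step). In the simulation unchanged genes had the same mean share of UMIs in every class. All genes had the same spread, and the pools did not differ. The real data depart from this, so these rates need not hold for them. The library is a block in the main design because each class was sampled from both pools; same-numbered sums come from the same pooled glands. Alternatives were DESeq2, other totals, filters, clusterings and doublet handling, a fit without the block, and single libraries; 4 more were chosen after seeing the data. Shares of cells were also computed after thinning to 1000 UMIs, below which no cell fell.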

Additional observations from a re-analysis of the deposited data

How the results depend on the processing

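Across the fits that could be run, 11 counts of called genes were recomputed; 121 of 128 recomputed counts, with higher and lower genes summed for the hormone classes and for fibroblast-like against endothelial-like cells, stayed within 1.5 times the reported one. The 7 exceptions were all for melanotrope-like cells (1 gene in the report): 2 genes with DESeq2, with hormone transcripts left out of totals, at Leiden resolution 0.5, without cells over 30% Gh in the classes without a hormone and without stem-like cells that held markers of other cells (both chosen after seeing the data), and 3 with no filter on low counts and with doublets kept. By direction, the higher genes of corticotrope-like cells went from 5 to 3 with doublets kept and at resolution 2. The lower genes went from 2 to 1 in endothelial-like and from 0 to 1 in macrophage-like cells at resolution 2 and without cells over 30% Gh. Over all genes tested, the balance of higher and lower calls moved by more than 10 percentage points in 6 cases. With DESeq2 it was 2047 higher and 2660 lower in lactotrope-like cells (reported fit 2831 and 2331), 2346 and 2756 in somatotrope-like cells (3270 and 2471), 2048 and 492 in macrophage-like cells (1856 and 948), 1620 and 634 in melanotrope-like cells (1325 and 1009), and 1524 and 462 in pituicyte-like cells (1137 and 923). The median log2 difference over all genes was 0.04 in pituicyte-like and -0.05 in macrophage-like cells with DESeq2, against -0.25 and -0.19 in the reported fit. At Leiden resolution 2 the balance was 1858 and 1471 in macrophage-like cells. All 502 refitted log2 differences of the 43 results chosen by the naming rule kept their direction and their side of the threshold, the fit with no replicate block included (Col1a2 in lactotrope-like cells 3.87 without the block, 3.87 with it). With a library left out, which gives a value but no test, 66 of 86 differences moved by no more than their spread and none changed sign. Col1a2 in lactotrope-like cells ranged from 3.74 to 4.02. The naming rule had already asked for a passed test and the same direction in both libraries, or for the highest mean level of all classes. Kept signs and kept sides of the threshold were therefore largely set by the choice of results and are not separate evidence. No value could be had for pericytes in any setting, for pituicyte-like cells with doublets kept or at resolution 0.5, or for endothelial-like cells at resolution 0.5. Of 19 recomputed shares of cells, 12 moved by no more than the SD; thinning outside the hormone transcripts raised Col1a2 to 12.5% of lactotrope-like and 6.23% of somatotrope-like cells. Depth limits pituicyte-like and macrophage-like cells most, where 3 UMIs stand for 10.1 to 18.3 CPM.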

Other observations

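The 5 clusters left unnamed also carried the collagens of the growth hormone and prolactin cells. A cluster of 350 cells led by Tshb, the beta subunit of thyrotropin, held Col1a2 at 70.1 and Col27a1 at 53.4 hormone-free CPM, beside 3 UMIs of Col4a1. A cluster of 71 cells led by haemoglobin genes held Col1a2 at 91.3 hormone-free CPM, and further clusters of 114 and 98 cells held it at 98.3 and 61.1 hormone-free CPM. A cluster of 67 cells held 8 UMIs of Col1a2, or 23.3 hormone-free CPM. Growth hormone RNA exceeded 30% of the UMIs in 74.9% of the 700 unnamed cells, and the part of such cells in these levels was not tested. These clusters were put in no comparison.

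Several of the genes lie side by side in opposite orientation. Between the annotated genes Col4a3 and Col4a4 there are 71 bp, and between Col4a5 and Col4a6 1308 bp. The neighbours differed in their balance by class. Col4a3 gave 69.1% (exact 95% interval 58.8 to 78.3%) of the pair's UMIs in endothelial-like cells, 50.1% (44.7 to 55.6%) in somatotrope-like cells and 27.4% (19.5 to 36.6%) in stem-like cells. Both libraries had the same order, with 70.5% and 68.0%, 47.3% and 53.6%, and 31.8% and 24.6%. These intervals cover counting error only, and the difference was not tested. Stem-like cells also held Col8a2 without much Col8a1 (31 and 5 UMIs), where endothelial-like cells held 96 UMIs of Col8a1 and 0 of Col8a2.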
